A study of Homo sapiens with 26 samples.

Results

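The transcripts that respond to DAPT were measured in MDA-MB-468 cells, a human cell line derived from a triple-negative (basal) breast carcinoma. The comparison comprised 3 arrays labelled agD/DAPT and 3 arrays labelled agD/DMSO, chosen by their treatment label in the Notch antagonism experiment, which are 6 of the 26 arrays of the series. All 6 were Affymetrix HG-U133 Plus 2.0 arrays hybridised with biotin-labelled cRNA. Cells treated with DAPT received 5 uM of the compound together with 10 ug/ml of a control IgG. Control cells received 10 ug/ml of the control antibody anti-gD IgG together with 0.05% DMSO. The labels do not give the DMSO content of the DAPT plates. Compounds were added 40 h after plating on 10 cm plates, and cells were collected 24 h after that. The control antibody was thus shared by both groups, and the whole comparison rests on 1 cell line. A further 2 arrays of the experiment, treated with the anti-NOTCH3 antibody anti-N3.A4 and DMSO, entered the fit only to help estimate the spread between arrays. Whether the replicate arrays were prepared from independent cultures is not given in the labels, so the p-values measure the spread between these arrays, which may be technical.

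DAPT is a small-molecule inhibitor of gamma-secretase, the membrane protease that cuts Notch receptors after a ligand has bound and a metalloprotease has shed the extracellular part. The cut frees the intracellular domain of the receptor, which enters the nucleus, joins the DNA-binding protein RBPJ and a Mastermind co-activator, and switches on genes such as those of the HES and HEY repressors. Gamma-secretase also cuts many other membrane proteins, among them APP and several cadherins, so its inhibition is not confined to Notch. In breast epithelium Notch signalling takes part in the choice between luminal and basal fates.

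Of 19775 genes measured, 70 passed the test at an adjusted p under 0.05, which is 0.354% of the genes (limma, Benjamini-Hochberg adjustment over all genes). Of these, 40 were higher with DAPT (0.202%) and 30 were lower (0.152%). Values are log2 intensities, and a change is the mean of the DAPT arrays minus the mean of the control arrays on that scale. The median change over all genes was −0.00, and the median standard error of a change was 0.09. Among the genes that passed, 8 fell and 3 rose by at least 2-fold, and the smallest change that passed was 0.37. The DAPT and control arrays did not overlap for any of the 70 genes. Such a separation was seen for 3537 genes in all, or 17.9% of those measured. An unadjusted limma p under 0.05 was obtained for 2572 of the 19775 genes. Counts of such p-values in the gene lists below are to be read against that share, which some lists do not clearly exceed.

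**Figure D1:**
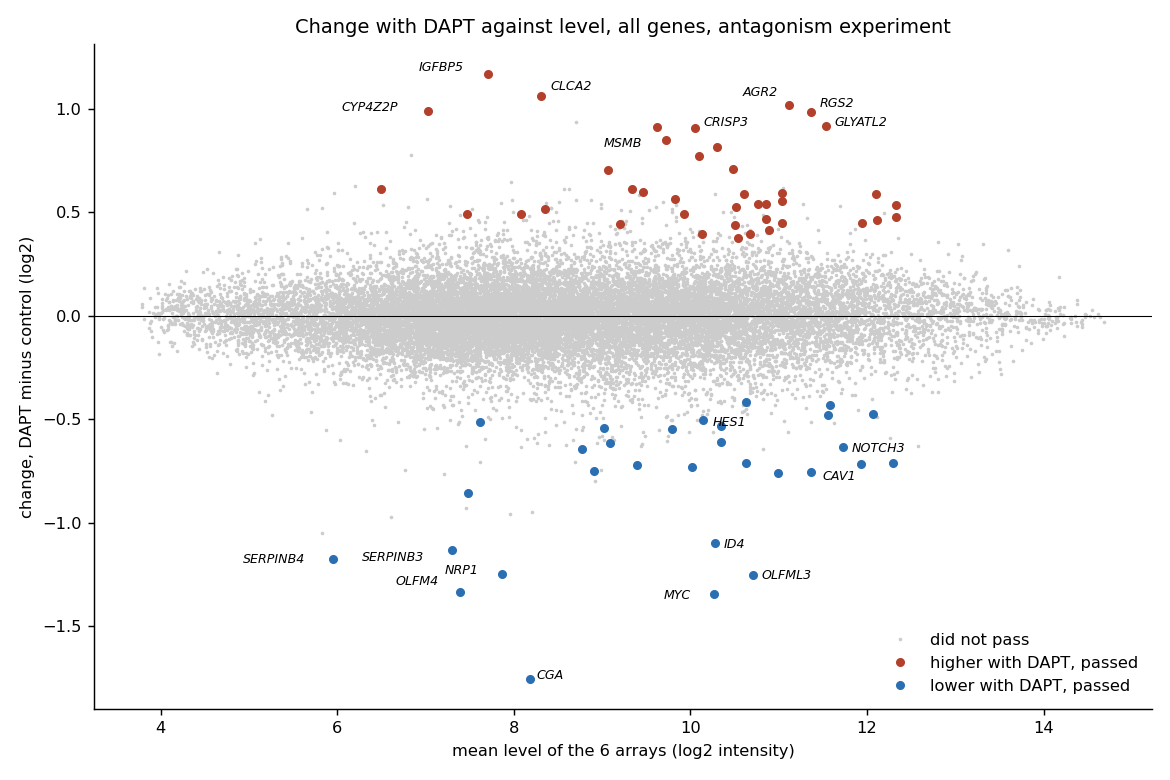
Change with DAPT (vertical axis, DAPT minus control, log2) against the mean level of the 6 arrays (horizontal axis, log2 intensity) for all 19775 genes. Red points are the 40 genes that passed and were higher with DAPT, blue points the 30 that passed and were lower, and grey points did not pass. The changes that passed lie beyond 0.37 in size and reach −1.75 for CGA and 1.17 for IGFBP5.

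The control arrays were less alike than the DAPT arrays. Over all genes the SD of the log2 difference between a pair of arrays was 0.129, 0.156 and 0.167 for the 3 pairs of DAPT arrays. It was 0.158 between control arrays 1 and 3, 0.247 between control arrays 1 and 2, and 0.320 between control arrays 2 and 3. With control array 2 left out, 581 genes were higher (2.94%) and 617 lower (3.12%), among them all 70 genes named above. With any other single array of the 6 left out, between 11 and 35 genes passed. Calls without control array 2 that are given below thus come from the fit of this kind with the most calls. They do not replace the result with all arrays. Of the 70 genes, 10 passed in all 6 fits that left out 1 array, namely MYC, OLFML3 and ALPP among those that fell and AGR2, CYP4Z2P, RGS2, CYP4Z1, CRISP3, MSMB and TP53INP2 among those that rose. Another 33 passed in only 1 of these fits, the one without control array 2, and 19 in only 2. The 3′ to 5′ signal ratio of the ACTB control probe sets, a measure of RNA integrity, was 0.22, 0.25 and 0.33 on the log2 scale on the DAPT arrays, against 0.15, 0.16 and 0.34 on the control arrays. The groups overlapped in this ratio.

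The cell line label was checked against marker genes. EPCAM and the simple keratins KRT7, KRT8, KRT18 and KRT19 lay between the 99.0th and the 99.8th percentile of level among all genes, and EGFR, which this line is known to express strongly, lay at the 99.7th. The 7 measured basal defining markers ranged from VIM at the 57.4th and KRT14 at the 67.9th percentile to KRT5 at the 97.0th and EGFR. The 8 luminal ones ranged from PGR at the 17.1st, TFF1 at the 37.4th, ESR1 at the 39.1st and TFF3 at the 41.1st percentile to ERBB2 at the 72.2nd, FOXA1 at the 81.3rd, GATA3 at the 92.3rd and XBP1 at the 96.0th, so high levels were found among markers of both kinds. Of 20 measured markers of fibroblasts, leukocytes, endothelium and adipocytes, none passed the test. An unadjusted limma p under 0.05 was found for 3 of them, where 2572 of 19775 genes had one. Changes of the 20 lay between −0.32 and 0.23. The highest of the 20 by level were CD14, at the 87.6th percentile, and COL1A1, at the 73.3rd.

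MYC, which had the smallest adjusted p among the genes that fell, encodes the growth-promoting transcription factor that Notch is known to activate in several cancers. MYC measured 9.45, 9.69 and 9.65 on the DAPT arrays, against 10.78, 10.95 and 11.09 on the control arrays. The lowest control array lay 1.09 above the highest DAPT array. The change was −1.34 (SE 0.10, limma adjusted p = 0.00216), which left MYC at 39.4% of the control level. The fall lay between −1.42 and −1.27 when each of the 6 arrays was left out in turn, with adjusted p no higher than 0.0288.

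Among the 4 Notch receptor genes, NOTCH3 was the one that passed. NOTCH3 measured 11.35, 11.53 and 11.34 on the DAPT arrays, against 12.16, 11.92 and 12.04 on the control arrays. All DAPT values lay below all control values, and the change was −0.63 (SE 0.10, limma adjusted p = 0.0389), or 64.4% of control. A second NOTCH3 probe set of much lower signal changed by −0.10, with an unadjusted p-value of 0.35 in the same limma fit. NOTCH1 averaged 8.33 on the DAPT arrays and 8.50 on the control arrays, a change of −0.17 (adjusted p = 0.491). For NOTCH2 the change was 0.08 (adjusted p = 0.806) and for NOTCH4 −0.02 (adjusted p = 0.964), and both differences changed sign when control array 2 was left out, to −0.03 for NOTCH2 and 0.12 for NOTCH4. NOTCH3 and NOTCH2 had the highest signals of the family by level, at the 93.0th and 91.0th percentile, but intensities of different probe sets are not comparable as amounts of transcript.

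Of 14 genes listed as canonical Notch targets, 2 passed, NOTCH3 itself and HES1, and both were lower, against a background of 0.152% of all genes. HES1, the best known of the repressors that Notch activates, measured 9.88, 9.88 and 9.93 on the DAPT arrays, against 10.34, 10.36 and 10.50 on the control arrays. The spread within each group was small beside the gap of 0.41 between them. The change was −0.50 (SE 0.07, limma adjusted p = 0.0248), and a second HES1 probe set of like signal changed by −0.52. The calls of HES1 and NOTCH3 were lost when any array other than control array 2 was left out, with adjusted p up to 0.155 for HES1 and 0.191 for NOTCH3, while the changes stayed between −0.54 and −0.45 and between −0.70 and −0.58. CCND1, which encodes cyclin D1, measured 10.06, 10.07 and 10.19 on the DAPT arrays and 10.45, 10.61 and 10.80 on the control arrays. Its groups did not overlap, but the change of −0.51 did not pass (adjusted p = 0.0706). HES4, another HES repressor, gave −0.44 (adjusted p = 0.117) and BHLHE40, a repressor of the circadian and hypoxic responses, gave −0.27 (adjusted p = 0.132). With control array 2 left out, CCND1, HES4, BHLHE40, HES1 and NOTCH3 were called lower, which is 5 of the 14 where 3.12% of all genes were, and CDKN1A, the cell-cycle inhibitor p21, was called higher, where 2.94% were.

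None of the remaining target genes passed, and most gave small values in these cells. NRARP, a feedback inhibitor that binds the Notch transcription complex, averaged 8.72 with DAPT and 8.96 in controls, a change of −0.24 (adjusted p = 0.286). HEY1, HEY2, HES5 and the E3 ligase gene DTX1 gave −0.08, −0.05, −0.05 and −0.02, and HES2, HEYL and HES7 gave 0.05, 0.09 and 0.19, with adjusted p between 0.31 and 0.974. HES5 lay at the 9.6th percentile of level, HEY2 at the 19.9th and DTX1 at the 20.9th, near the bottom of the measured range. CDKN1A measured 10.10, 10.18 and 10.32 on the DAPT arrays and 9.71, 9.75 and 9.89 on the control arrays, a change of 0.42 (adjusted p = 0.0781). The median over the 14 listed targets was −0.06, beside −0.00 over all genes. An unadjusted limma p under 0.05 was found for 8 of the 14, where 2572 of 19775 genes had one.

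The promoter windows of HES1 and of OLFM4, described below, are shown because they are the windows of genes that fell in which the letters GTGGGAA, a form of the RBPJ recognition sequence, were found on either strand. Each window covers 250 bases before and 50 bases after the start of transcription in RefSeq, build GRCh38.p14, and capitals mark TGGGAA, the core of that sequence. The HES1 window lies at chr3:194135898-194136197 on the plus strand and holds the core 84 and 70 bases before the start, 14 bases apart. The OLFM4 window lies at chr13:53028563-53028862 on the plus strand and holds it 249 bases before the start.
HES1: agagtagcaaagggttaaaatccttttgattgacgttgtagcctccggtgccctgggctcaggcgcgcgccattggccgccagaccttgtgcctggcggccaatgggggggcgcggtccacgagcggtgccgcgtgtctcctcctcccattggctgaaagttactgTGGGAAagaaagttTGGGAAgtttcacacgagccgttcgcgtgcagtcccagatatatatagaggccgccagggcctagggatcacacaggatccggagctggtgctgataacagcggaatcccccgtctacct
OLFM4: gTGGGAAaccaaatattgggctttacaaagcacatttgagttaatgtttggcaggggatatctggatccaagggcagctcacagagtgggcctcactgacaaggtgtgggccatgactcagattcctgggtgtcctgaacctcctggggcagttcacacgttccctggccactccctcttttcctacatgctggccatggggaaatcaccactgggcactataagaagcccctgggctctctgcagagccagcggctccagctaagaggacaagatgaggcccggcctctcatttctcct

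The core TGGGAA, or TTCCCA on the other strand, was present in 5 of 29 windows of genes that fell (17.2%), in 4 of 41 windows of genes that rose (9.76%) and in 24% of 35116 windows of all genes. The longer GTGGGAA, which contains the core, was present in 2 of the 29, in 0 of the 41 and in 6.25% of all windows. CACGTG, the sequence bound by MYC with MAX, was present in 2 of the 29 windows, those of ADISSP and SLC7A5, in 1 of the 41, that of COMMD3, and in 7.26% of all windows. These are descriptions of letters in short windows, which were available for 24 of the 30 genes that fell and 32 of the 40 that rose.

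Of 12 genes of ligands and their modifying enzymes none passed, and 3 had an unadjusted limma p under 0.05. JAG1, which encodes a Notch ligand, came closest. Its values were 10.43, 10.32 and 10.74 on the DAPT arrays and 11.12, 10.98 and 11.33 on the control arrays, a change of −0.64 (SE 0.12, limma adjusted p = 0.0781). Of the 5 further JAG1 probe sets, the one with the most similar signal changed by −0.76 and the dimmer ones by −0.93, −0.74, −0.18 and 0.03. The probe set that changed by −0.93 passed when all probe sets were tested singly in limma (adjusted p = 0.0395 over probe sets). In that test the brightest probe sets of HES1 and NOTCH3 did not pass (limma adjusted p = 0.0675 and 0.0928 over probe sets). The JAG1 change was −0.72 without control array 2 and was then called lower (adjusted p = 0.00967). JAG2, a second ligand of the Jagged type, gave −0.30 (adjusted p = 0.313), DLL1 0.16, DLL3 −0.06 and DLL4 0.06, and the Delta-like proteins DLK1 and DLK2 gave −0.09 and −0.01. The Fringe glycosyltransferases, which tune ligand choice, gave 0.16 for LFNG, −0.05 for MFNG and 0.07 for RFNG, and the enzymes that add the first sugars to Notch gave −0.12 for POFUT1 and −0.04 for POGLUT1.

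Several of these values near 0, and of those of the lists that follow, changed sign when an array was left out. Genes of gamma-secretase itself, the complex that DAPT inhibits, did not pass either. Of the 5 measured, 1 had an unadjusted limma p under 0.05, and NCSTN, which encodes nicastrin, had the largest change, 0.23 (SE 0.07, adjusted p = 0.232), and PSEN2, APH1A, APH1B and PSENEN gave 0.14, 0.02, 0.09 and 0.03. Among 13 genes of the RBPJ complex none passed and 1 had an unadjusted p under 0.05. RBPJ gave 0.13 (adjusted p = 0.49), the Mastermind genes MAML1, MAML2 and MAML3 gave −0.09, −0.13 and 0.10, and the acetyltransferase genes EP300, CREBBP and KAT2B gave −0.00, −0.17 and −0.37. The co-activator SNW1 gave −0.03, and the co-repressor genes SPEN, KDM5A, HDAC1, TLE1 and CIRSR gave −0.07, 0.09, 0.17, −0.13 and −0.00, with adjusted p of at least 0.399. Among 14 genes of receptor shedding and trafficking, none of which passed and 2 of which had an unadjusted p under 0.05, DTX4, an E3 ligase of the Deltex family, gave 0.53 (adjusted p = 0.0604). DTX4 measured 11.83, 12.10 and 11.93 on the DAPT arrays, all above the control values of 11.50, 11.39 and 11.40. Without control array 2, DTX4 was called higher (limma adjusted p = 0.0190), and in the RBPJ complex KAT2B was called lower at −0.51 and MAML3 higher at 0.40 (adjusted p = 0.0272 and 0.0404). The further MAML3 probe sets gave 0.02 and −0.17 with all arrays, so the direction of MAML3 is unsettled. Of 30 genes of other gamma-secretase substrates none passed, 6 had an unadjusted p under 0.05, and their median was 0.02, with SORL1, an APP sorting receptor, at 0.44 (adjusted p = 0.132) and CDH1, which encodes E-cadherin, at 0.25 (adjusted p = 0.175).

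**Figure D2:**
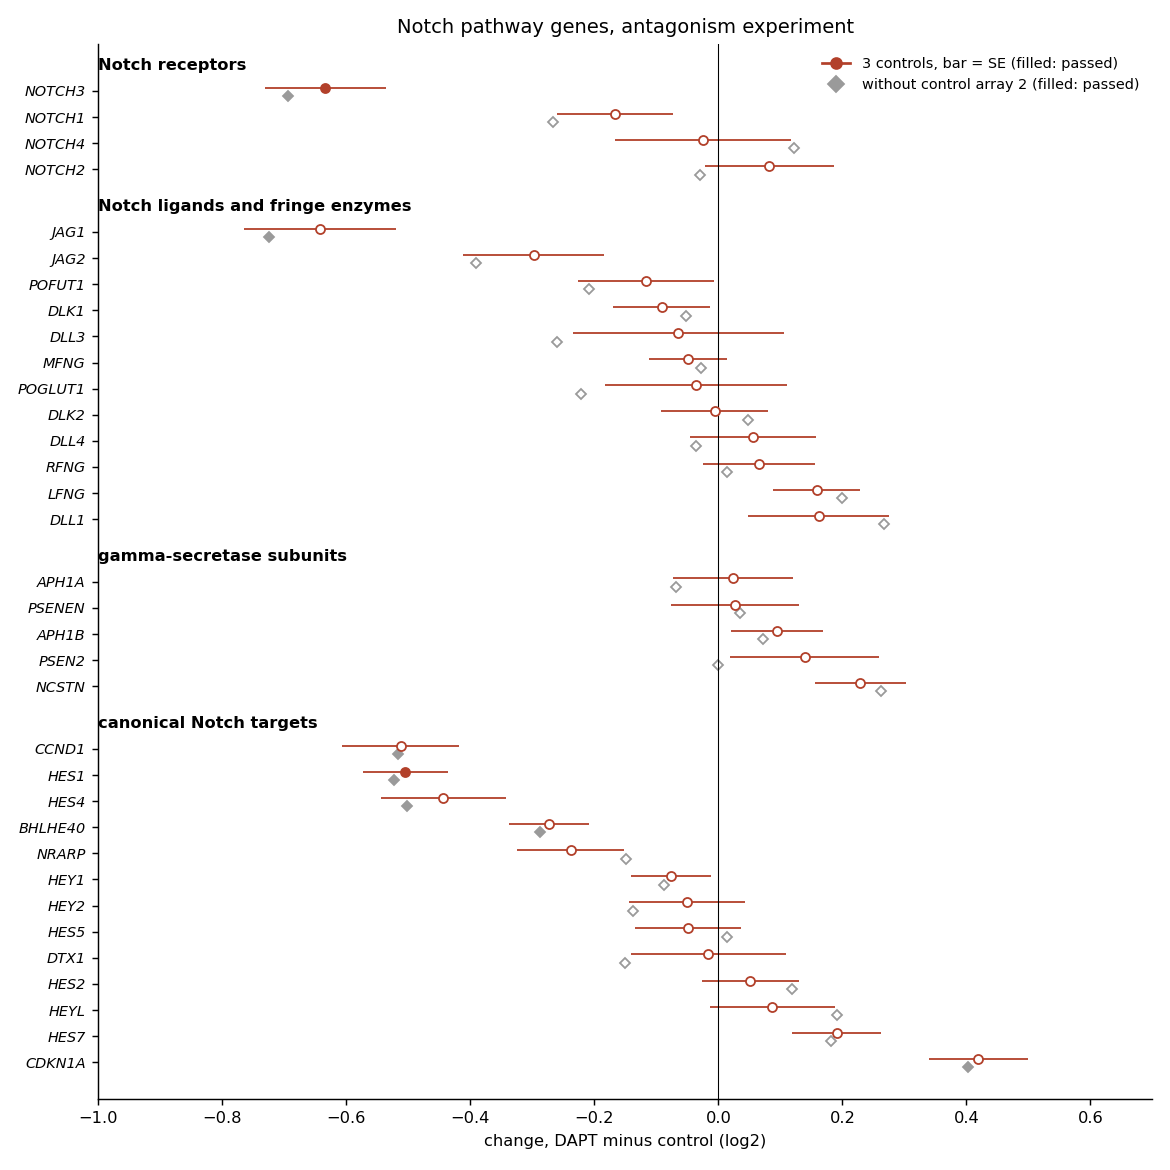
Change with DAPT (horizontal axis, DAPT minus control, log2) for the receptors, ligands and modifying enzymes, gamma-secretase subunits and canonical targets of the Notch pathway. Red circles use all 3 control arrays with the SE as a bar, grey diamonds leave out control array 2, and filled symbols passed. NOTCH3 at −0.63 and HES1 at −0.50 are the filled circles, and the protease subunits lie between 0.02 and 0.23.

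Of 12 measured genes of the MYC network, MYC alone passed and had an unadjusted limma p under 0.05. Its obligate partner MAX gave −0.07 (adjusted p = 0.737), and the paralogues MYCN and MYCL gave 0.02 and −0.01. The antagonists MXD1, MXD3, MXI1, MNT and MGA gave 0.17, −0.14, 0.02, −0.08 and −0.13, and MLX, MLXIP and MLXIPL gave 0.07, −0.06 and 0.09, with adjusted p of at least 0.541 for all of these.

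Lists of growth and division genes, which include many known MYC targets, lay mostly below 0, while few of their members passed. All 25 measured genes of ribosome biogenesis were lower with DAPT, with a median of −0.27 and a range from −0.51 to −0.04, but 0 passed and 15 had an unadjusted limma p under 0.05. Over all genes 10153 of 19775 lay below 0 and 2572 had an unadjusted p under 0.05. Without control array 2, 10 of the 25 were called lower, where 3.12% of all genes were, and the median was −0.28. WDR43, a nucleolar factor of small-subunit assembly, measured 9.44, 9.54 and 9.65 on the DAPT arrays and 10.03, 9.95 and 10.17 on the control arrays, a change of −0.51 (adjusted p = 0.0528). NOP16, a nucleolar protein and known MYC target, gave −0.38 (adjusted p = 0.0616), and the nucleolar phosphoprotein gene NOLC1 gave −0.34 (adjusted p = 0.0983). Of 23 genes of polyamine and nucleotide synthesis, 1 passed (0.152% of all genes were called lower) and all 23 were below 0, with a median of −0.18. The one that passed was IMPDH2, the rate-limiting enzyme of guanine nucleotide synthesis, at 11.39, 11.35 and 11.37 on the DAPT arrays and 11.72, 11.77 and 11.91 on the control arrays. IMPDH2 changed by −0.43 (SE 0.07, limma adjusted p = 0.0432), and the call was lost when any array other than control array 2 was left out, with adjusted p up to 0.249. SLC7A5, the importer of large neutral amino acids, measured 11.50, 11.53 and 11.70 on the DAPT arrays and 12.26, 12.18 and 12.44 on the control arrays, a change of −0.72 (adjusted p = 0.0163). SLC7A5 passed in 3 of the 6 fits that left out 1 array.

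Genes of the cell cycle were treated in the same way. Of 31 genes of the G1/S transition and DNA replication, 30 were below 0, with a median of −0.19, and 1 passed (0.152% of all genes were called lower). This was MCM10, which is needed to start replication forks, at 9.62, 9.55 and 9.38 on the DAPT arrays and 10.04, 10.04 and 10.10 on the control arrays. MCM10 changed by −0.55 (SE 0.08, limma adjusted p = 0.0378), and its 2 further probe sets changed by −0.46 and −0.56. CDC45, a part of the replicative helicase, gave −0.40 (adjusted p = 0.06). Of 30 genes of G2/M and mitosis, 28 were below 0, with a median of −0.18. Of these 0 passed and 13 had an unadjusted limma p under 0.05, where KIF23, a kinesin of cell division, had −0.35 (adjusted p = 0.0804) and MAD2L1, a spindle checkpoint protein, −0.45 (adjusted p = 0.117). Without control array 2, 11 of the 31 and 5 of the 30 were called lower, against 3.12% of all genes. Outside the lists, LIN9, a subunit of the complex that regulates cell-cycle genes, fell by 0.54 and MIS18A, which prepares centromeres for their histone, fell by 0.76 on the log2 scale (adjusted p = 0.0432 and 0.0389). The calls of MCM10, LIN9 and MIS18A were lost in most fits that left out 1 array, with limma adjusted p up to 0.172, 0.249 and 0.183. In such bulk samples, fewer dividing cells and less transcript per cell cannot be told apart.

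Several secreted proteins and surface receptors fell besides MYC. The largest change of all was that of CGA, which encodes the alpha subunit shared by the glycoprotein hormones. CGA measured 7.90, 6.90 and 7.11 on the DAPT arrays, against 9.07, 8.71 and 9.38 on the control arrays. The SD of the DAPT arrays was 0.53 and that of the control arrays 0.34, and all DAPT arrays lay below the lowest control. The change was −1.75 (SE 0.25, limma adjusted p = 0.0272), or 29.7% of control. A second CGA probe set of much lower signal, at a mean of 5.56, gave 0.03, so the fall rests on 1 probe set. The 5 other measured genes of glycoprotein hormones and their receptors lay between −0.09 and 0.06. The olfactomedin-domain genes OLFM4 and OLFML3, which encode secreted glycoproteins, both fell, while the 7 other measured members of the family lay between −0.19 and 0.05 and did not pass. OLFM4 measured 6.68, 6.64 and 6.87 on the DAPT arrays, against 8.20, 7.65 and 8.33 on the control arrays, a change of −1.33 (SE 0.16, adjusted p = 0.0152). OLFML3 measured 9.89, 10.24 and 10.10 on the DAPT arrays, against 11.19, 11.29 and 11.51 on the control arrays, a change of −1.25 (SE 0.11, adjusted p = 0.0045). NRP1, the co-receptor for class 3 semaphorins and VEGF, measured 7.29, 7.17 and 7.28 on the DAPT arrays, against 8.70, 8.04 and 8.75 on the control arrays. Control array 2 was the lowest of the controls for CGA, OLFM4 and NRP1, and none of these arrays overlapped with DAPT. NRP1 changed by −1.25 (SE 0.17, adjusted p = 0.0246), whereas 17 other neuropilin, semaphorin and plexin pathway genes did not pass and lay between −0.19 and 0.31. The dimmer NRP1 probe sets gave −0.37, −0.01 and −0.11. The calls of CGA, OLFM4 and NRP1 were lost when some arrays other than control array 2 were left out, with adjusted p up to 0.154, 0.13 and 0.147, while OLFML3 passed in every such fit.

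Of 16 serpin genes measured, 3 were lower with DAPT, against 0.152% of all genes. The list was chosen with earlier results of these data known, so this share is not independent evidence. SERPINB3 and SERPINB4, neighbouring genes of chromosome 18 whose products inhibit cysteine and serine proteases of epithelia, fell together. SERPINB3 measured 6.71, 6.73 and 6.76 on the DAPT arrays, against 8.06, 7.47 and 8.07 on the control arrays, a change of −1.13 (SE 0.15, limma adjusted p = 0.0224). SERPINB4 measured 5.50, 5.34 and 5.27 on the DAPT arrays, against 6.62, 6.26 and 6.76 on the control arrays, a change of −1.18 (SE 0.12, adjusted p = 0.00854). The DAPT values of SERPINB4 lay below 6.46, the lowest of the arrays' lower quartiles, so its fall is measured near the bottom of the scale. The genes are near-identical copies, and their probe sets, which both carry a maker's mark (_x or _s) for sequence that other transcripts may share, may measure each other's transcripts. SERPINA3, the acute-phase inhibitor alpha-1-antichymotrypsin, measured 10.16, 10.24 and 10.44 on the DAPT arrays, against 10.89, 11.05 and 11.03 on the control arrays, a change of −0.71 (adjusted p = 0.0188). SERPINB7 gave −0.60 and did not pass (adjusted p = 0.0583), but was called lower without control array 2 (adjusted p = 0.00532), and the median over the 16 genes was −0.00. Each of the 3 calls was lost with at least some single arrays left out, with adjusted p up to 0.132 for SERPINB3 and 0.0755 for SERPINB4.

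The promoter windows of SERPINB3, chr18:63661844-63662143, and SERPINB4, chr18:63644207-63644506, both on the minus strand of GRCh38.p14 in RefSeq, are shown because the pair fell together. The windows differ at 4 of 300 bases, marked by capitals, and are 98.7% identical.
SERPINB3: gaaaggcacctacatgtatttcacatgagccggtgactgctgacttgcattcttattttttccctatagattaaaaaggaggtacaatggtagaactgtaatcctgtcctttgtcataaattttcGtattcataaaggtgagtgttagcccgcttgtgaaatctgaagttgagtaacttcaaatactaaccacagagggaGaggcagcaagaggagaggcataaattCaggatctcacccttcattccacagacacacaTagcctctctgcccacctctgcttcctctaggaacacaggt
SERPINB4: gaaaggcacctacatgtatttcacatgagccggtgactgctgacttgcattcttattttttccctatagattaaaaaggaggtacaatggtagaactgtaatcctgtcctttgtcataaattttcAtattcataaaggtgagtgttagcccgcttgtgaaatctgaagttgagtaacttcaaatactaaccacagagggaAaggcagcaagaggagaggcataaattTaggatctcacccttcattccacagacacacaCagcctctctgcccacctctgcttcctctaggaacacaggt

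ID4 and ID1, which encode inhibitors of basic helix-loop-helix factors and are known targets of BMP signalling, were lower with DAPT. ID4 measured 9.63, 9.68 and 9.89 on the DAPT arrays, against 10.73, 10.50 and 11.25 on the control arrays, a change of −1.10 (SE 0.17, limma adjusted p = 0.0378). ID1 measured 10.12, 9.96 and 10.05 on the DAPT arrays, against 10.52, 10.66 and 10.77 on the control arrays, a change of −0.61 (SE 0.08, adjusted p = 0.0261). The groups did not overlap for either gene. The related ID3 gave −0.22 (adjusted p = 0.176) and ID2 gave 0.05, and the other measured genes of TGF-beta and BMP feedback did not pass. CAV1, the coat protein of caveolae, measured 11.05, 11.02 and 10.91 on the DAPT arrays, against 11.54, 11.80 and 11.90 on the control arrays, a change of −0.76 (SE 0.10, adjusted p = 0.0203). CAV2, its partner, gave −0.22 (adjusted p = 0.206). ALPP, placental alkaline phosphatase, measured 9.65, 9.70 and 9.61 on the DAPT arrays, against 10.32, 10.41 and 10.42 on the control arrays, a change of −0.73 (SE 0.06, adjusted p = 0.0045). The SD of ALPP was 0.04 among DAPT arrays and 0.05 among control arrays. GAS1, a Hedgehog co-receptor, gave −0.86 (adjusted p = 0.0432) in its brightest probe set, while its 2 dimmer ones gave −0.02 and −0.01. EPHB6, an Eph receptor without kinase activity, gave −0.72, S100A3 −0.75, the immediate early gene IER5 −0.71 and the secreted IGFL1 −0.65, with adjusted p between 0.0149 and 0.0426. The other genes that fell were SLC45A3 at −0.61, ADISSP at −0.53, ENOX1 at −0.51, the pseudokinase gene TRIB2 at −0.48, the cytochrome P450 gene CYP1B1 at −0.47 and SLC43A3 at −0.42. Of the genes in this paragraph, ALPP passed with each of the 6 arrays left out, while the calls of ID4, ID1, CAV1, GAS1, EPHB6 and S100A3 were lost in at least 3 of those fits, with adjusted p up to 0.199, 0.155, 0.132, 0.24, 0.135 and 0.24. IGFL1, ADISSP, ENOX1, TRIB2, CYP1B1 and SLC43A3 passed in only 1 of the 6 fits, and IER5 and SLC45A3 in 3.

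**Figure D3:**
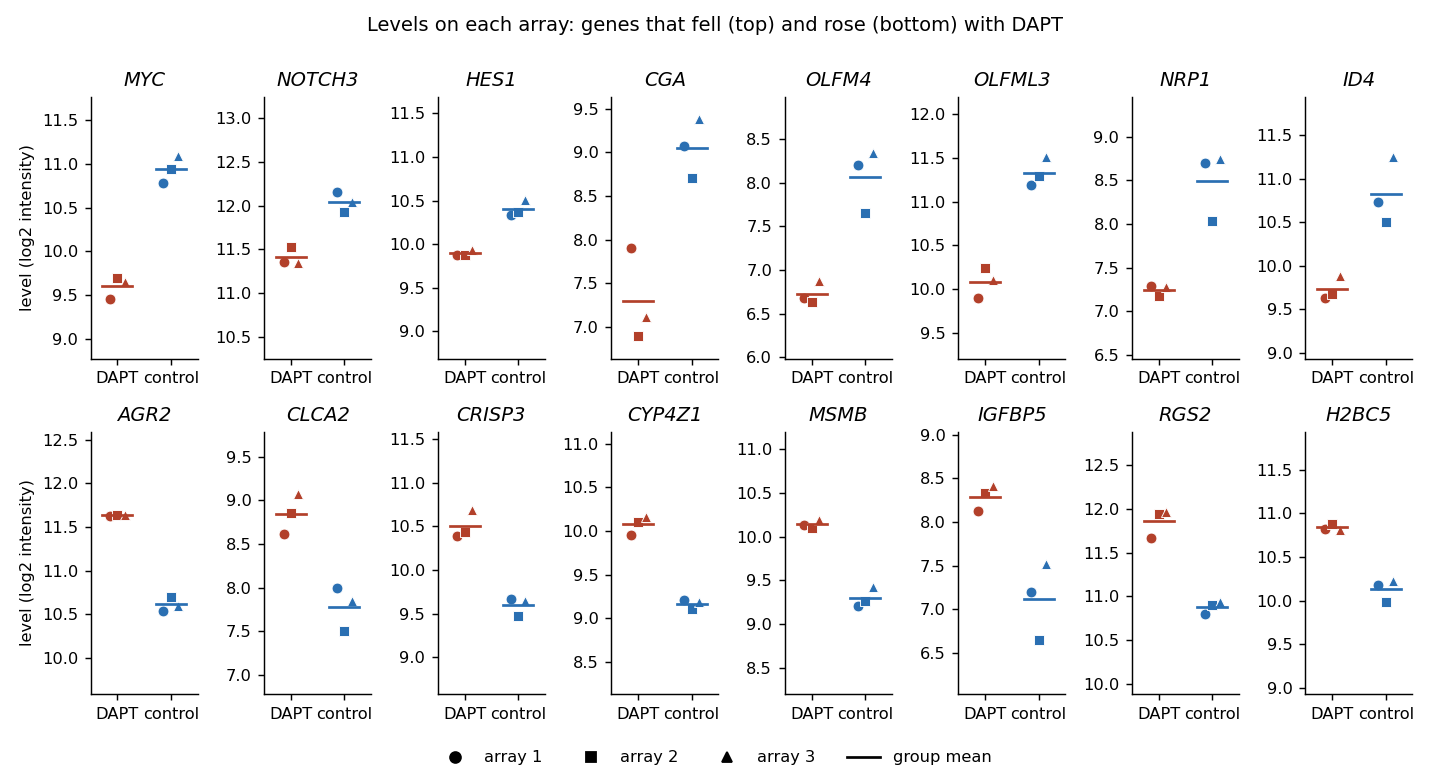
Level on each array (vertical axis, log2 intensity, every panel spanning 3 log2 units) for 8 genes that fell (top) and 8 that rose (bottom), with DAPT arrays in red on the left and control arrays in blue on the right of each panel. Symbols number the arrays of a group, which are not paired, and lines are group means. The groups do not overlap in any panel, and the square of control array 2 is the lowest control for CGA, OLFM4, NRP1, ID4, CLCA2 and IGFBP5, among others.

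Several products of luminal and apocrine secretory cells rose with DAPT. Of 22 measured genes of this list, 6 passed and all 6 were higher, against 0.202% of all genes. The median of the 22 was 0.27 beside −0.00 over all genes. The list holds enzymes besides secreted proteins. It was drawn up with earlier results of these data known, so its share of calls is not independent evidence. AGR2, a protein disulfide isomerase that folds secreted proteins, measured 11.63, 11.63 and 11.63 on the DAPT arrays, against 10.54, 10.70 and 10.60 on the control arrays. The DAPT arrays agreed to the second decimal, and the change was 1.02 (SE 0.07, limma adjusted p = 0.00216), or 203% of control. A second AGR2 probe set of much lower signal gave 0.23. CLCA2, a membrane protein that regulates chloride currents, measured 8.61, 8.85 and 9.07 on the DAPT arrays, against 8.0, 7.50 and 7.85 on the control arrays, a change of 1.06 (SE 0.14, adjusted p = 0.0248). All 3 further CLCA2 probe sets were higher too, by 0.80, 0.68 and 1.01. CRISP3, a cysteine-rich secretory protein, measured 10.38, 10.44 and 10.69 on the DAPT arrays, against 9.67, 9.47 and 9.64 on the control arrays, a change of 0.91 (SE 0.09, adjusted p = 0.00854). MSMB, a protein of prostatic and mucosal secretions, measured 10.13, 10.10 and 10.19 on the DAPT arrays, against 9.21, 9.26 and 9.42 on the control arrays, a change of 0.85 (SE 0.08, adjusted p = 0.00556). GLYATL2, an acyltransferase that makes fatty-acid glycine conjugates, measured 11.95, 11.85 and 12.18 on the DAPT arrays, against 10.99, 11.21 and 11.02 on the control arrays, a change of 0.92 (SE 0.10, adjusted p = 0.00978). For each of these 5 genes every DAPT array lay above every control array. The CLCA2 call was lost in 4 of the 6 fits that left out 1 array and the GLYATL2 call in 2, with adjusted p up to 0.147 and 0.0727, and the other 3 kept theirs.

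The sixth member of the list is CYP4Z1, a fatty-acid hydroxylase typical of the mammary gland, whose neighbours also rose. CYP4Z1 measured 9.96, 10.11 and 10.17 on the DAPT arrays, against 9.21, 9.10 and 9.18 on the control arrays, a change of 0.91 (SE 0.08, limma adjusted p = 0.0045). The pseudogene CYP4Z2P measured 7.44, 7.50 and 7.63 on the DAPT arrays, against 6.58, 6.50 and 6.52 on the control arrays, a change of 0.99 (SE 0.10, adjusted p = 0.00556). CYP4X1, an orphan member of the same P450 family, measured 12.33, 12.43 and 12.42 on the DAPT arrays, against 11.75, 11.81 and 11.85 on the control arrays, a change of 0.59 (SE 0.06, adjusted p = 0.00978). The 3 genes lie in 1 cluster on chromosome 1, where CYP4X1 and CYP4Z1 are adjacent among the measured genes and CYP4A11 lies between CYP4X1 and CYP4Z2P. As CYP4Z2P is a near copy of CYP4Z1, their signals may share transcripts. CYP4X1 passed in 3 of the 6 fits that left out 1 array and the other 2 genes in all 6.

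Within the luminal list, the members that did not pass included bright and dim genes. SLPI, PSCA and LCN2 gave 0.36, 0.45 and 0.35, each with an adjusted p of 0.085, and AZGP1 gave 0.29 (adjusted p = 0.16). PIP, the prolactin-induced protein of apocrine cells, gave 0.24 (adjusted p = 0.361), and the mammaglobin gene SCGB2A2, at the 2.4th percentile of level, gave 0.08. TFF1, TFF3 and LALBA lay below 0, at −0.16, −0.13 and −0.21. Of 16 luminal transcription factors none passed and 9 had an unadjusted limma p under 0.05, where 2572 of 19775 genes did. Their median was 0.15, with FOXA1 at 0.30, GATA3 at 0.22 and SPDEF at 0.27 above 0 and ELF5 at −0.34 and KLF5 at −0.27 below it. Further probe sets pointed the other way for GATA3 (−0.10 and −0.15), ELF5 (0.09) and KLF5 (0.15, at like signal), so their directions are unsettled. The further probe set of FOXA1 and most of those of SPDEF pointed the same way. Of 14 basal markers none passed either and 4 had an unadjusted p under 0.05, with a median of −0.04. KRT5 measured 12.37, 12.37 and 12.06 on the DAPT arrays, against 13.01, 12.87 and 12.80 on the control arrays, a change of −0.63 (SE 0.11, adjusted p = 0.0561), while the integrin gene ITGB4 gave 0.40 (adjusted p = 0.085) and the laminin gene LAMB3 −0.48 (adjusted p = 0.132). Without control array 2, KRT5 and LAMB3 were called lower and ITGB4 higher (limma adjusted p = 0.0150, 0.0347 and 0.0321), and SLPI, PSCA, LCN2 and AZGP1 were called higher.

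**Figure D4:**
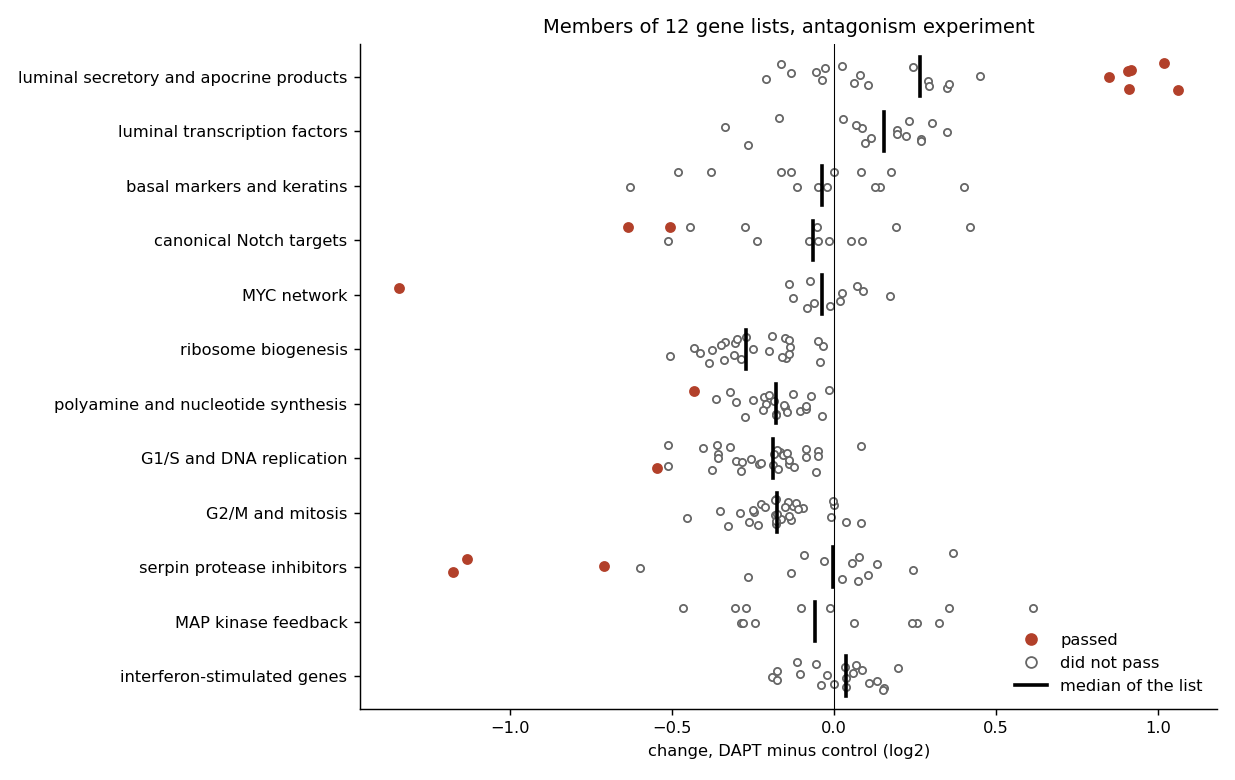
Change with DAPT (horizontal axis, DAPT minus control, log2) for every measured member of 12 gene lists (rows). Filled red points passed, open points did not, and black bars mark the median of a list. The luminal secretory list holds 6 red points on the right, and all 25 points of ribosome biogenesis lie left of 0.

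Among the signalling regulators that rose, RGS2, which switches off Gq-coupled signalling by speeding GTP hydrolysis, measured 11.66, 11.94 and 11.97 on the DAPT arrays, against 10.79, 10.90 and 10.94 on the control arrays. Its change was 0.98 (SE 0.09, limma adjusted p = 0.00556), and the 11 other measured RGS genes lay between −0.34 and 0.15 and did not pass. IGFBP5, a binding protein for insulin-like growth factors, measured 8.12, 8.33 and 8.41 on the DAPT arrays, against 7.19, 6.65 and 7.52 on the control arrays, a change of 1.17 (SE 0.19, adjusted p = 0.0445). Its SD was 0.15 among DAPT arrays and 0.44 among control arrays, and its 5 further probe sets gave between 0.07 and 0.34. The IGFBP5 change was 0.93 without control array 2 (adjusted p = 0.00317), and adjusted p reached 0.247 with another array left out. SOSTDC1, a secreted antagonist of BMP and Wnt, gave 0.70 (adjusted p = 0.0241). TP53INP2, a scaffold of autophagy, measured 10.57, 10.79 and 10.75 on the DAPT arrays, against 9.93, 9.82 and 9.92 on the control arrays, a change of 0.81 (SE 0.08, adjusted p = 0.00556). ELAPOR1, an endosomal and lysosomal membrane protein, gave 0.77 (adjusted p = 0.0307). RGS2 and TP53INP2 passed in all 6 fits that left out 1 array, whereas SOSTDC1 and ELAPOR1 reached adjusted p of 0.147 and 0.16.

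The smaller rises are grouped here by known function, a grouping made after the values were seen. GALNT10, which starts mucin-type O-glycans, gave 0.59, the sialyltransferase gene ST6GAL1 0.37, the lysosomal fucosidase gene FUCA1 0.59 and CREB3L4, a transcription factor anchored in the endoplasmic reticulum, 0.55. The efflux pump gene ABCC4 gave 0.61 and its neighbour on chromosome 13, the tight-junction gene CLDN10, gave 0.45. The transporters SLC15A2 and SLC12A2 gave 0.49 and 0.48. Metabolic enzymes that rose were NAT1 at 0.56, ALDH2 at 0.54, GPD1L at 0.45 and DHRS1 at 0.42. The surface genes VTCN1, which encodes the immune checkpoint ligand B7-H4, GPRC5B, GPR160 and TMEM150A gave 0.53, 0.60, 0.47 and 0.52. The remaining rises were those of LOC102724965 at 0.61, LEMD1 at 0.53, TMPRSS11E and DEPP1 at 0.49, ZNF704 at 0.44, SELENBP1 at 0.40, COMMD3 at 0.39, and 4 histone genes taken up in the closing section. Adjusted p lay between 0.00978 and 0.0451 for the genes named in this paragraph with their changes.

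Further probe sets of the same genes allowed a check of direction. Of the 70 genes, 32 had further probe sets, 62 in all, and 57 of these pointed the same way. Above the median level of 7.62 all 32 further probe sets pointed the same way, 20 of them with an unadjusted limma p under 0.05, and below it 25 of 30 did. CDH2, the N-cadherin gene and a gamma-secretase substrate, is a case in which probe sets disagreed, at −0.37 for its brightest and 0.56 for its other probe set. The second passed as higher when all probe sets were tested singly in limma (adjusted p = 0.0456 over probe sets), and the brightest was called lower without control array 2, so the direction of CDH2 is unsettled.

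DAPT was also applied, at the same 5 uM and to the same cell line, on 3 arrays of the agonism experiment of the series, which are set against 3 DMSO arrays of that experiment. There cells were plated more densely, no control antibody was added, and the drug was given for 16 h, washed out for 2 h, given again and re-added 22 h later, with harvest at 24 h after washout. No array is shared between the experiments, and levels are not compared across them because the array medians differed, at 7.60 to 7.65 in the antagonism and 6.84 to 6.88 in the agonism experiment. Of the 40 genes that rose in the antagonism experiment, 31 were called higher in the agonism experiment, where 12.4% of all genes were. COMMD3 was called lower there and 8 were not called. Of the 30 genes that fell, 21 were called lower, where 8.31% of all genes were, 0 were called higher and 9 were not called. Over all genes that experiment gave 2446 higher and 1643 lower as deposited, but 1867 higher and 2209 lower with arrays centred on their medians. A test of the difference between the DAPT effects passed for 1211 genes, or 6.12%, and for 12 of the 40 and 14 of the 30. Its split over all genes was 564 above and 647 below 0 as deposited, and 908 and 389 after centring.

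For MYC, NRP1, NOTCH3, HES1 and AGR2 the difference between the experiments did not pass. MYC in the agonism experiment measured 9.46, 9.28 and 9.54 with DAPT, against 10.68, 10.64 and 10.59 with DMSO, a change of −1.21 (limma adjusted p = 2.66e-08), and the difference between the experiments was −0.13 (SE 0.12, adjusted p = 0.559). For NRP1 that difference was −0.02 (SE 0.18), for NOTCH3 0.10 (SE 0.19), for HES1 −0.12 (SE 0.09) and for AGR2 0.09 (SE 0.10), and these standard errors do not show that the effects were alike. CGA, which had the largest fall in the antagonism experiment, gave 7.86, 7.85 and 7.60 with DAPT and 7.81, 7.82 and 7.78 with DMSO in the agonism experiment, a change of −0.03. The groups overlapped there, and the difference between the experiments was −1.72 (SE 0.26, adjusted p = 0.00132). SERPINB3 and SERPINB4 gave −0.05 and −0.23 there, with differences of −1.08 and −0.95 (adjusted p = 0.00151 and 0.00183). SERPINB4 lay between 4.13 and 4.52 and SERPINB3 between 6.04 and 6.27 on the agonism arrays, below the array medians, so a fall there may not have been measurable and these differences are not shown to be differences in the effect of DAPT. SLC7A5 gave −0.01 and ALPP 0.23 there, with differences of −0.70 and −0.96 (adjusted p = 0.0045 and 0.00466). MSMB gave 10.03, 9.97 and 9.84 with DAPT and 9.97, 9.67 and 10.17 with DMSO in the agonism experiment, a change of 0.01 and a difference of 0.84 (SE 0.14, adjusted p = 0.00299). RGS2 gave 0.10 there, with a difference of 0.88 (adjusted p = 0.00178). The opposite pattern, a larger change in the agonism experiment, was seen for IGFBP5 at 2.56, OLFM4 at −2.13, S100A3 at −1.26 and TMPRSS11E at 1.19, with differences that passed. On the antagonism arrays OLFM4 lay between 6.64 and 6.87 with DAPT, and IGFBP5 between 6.65 and 7.52 in controls. These values were below the array medians, so both changes may be compressed there. OLFM4 with DAPT also lay below the array medians in the agonism experiment. With only the compared groups in the fit, the differences of SLC7A5, IGFBP5, OLFM4 and S100A3 no longer passed (limma adjusted p = 0.0741, 0.0546, 0.123 and 0.144). The experiments differ in plating density, antibody, dosing schedule and overall array level at once, and these cannot be told apart.

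**Figure D5:**
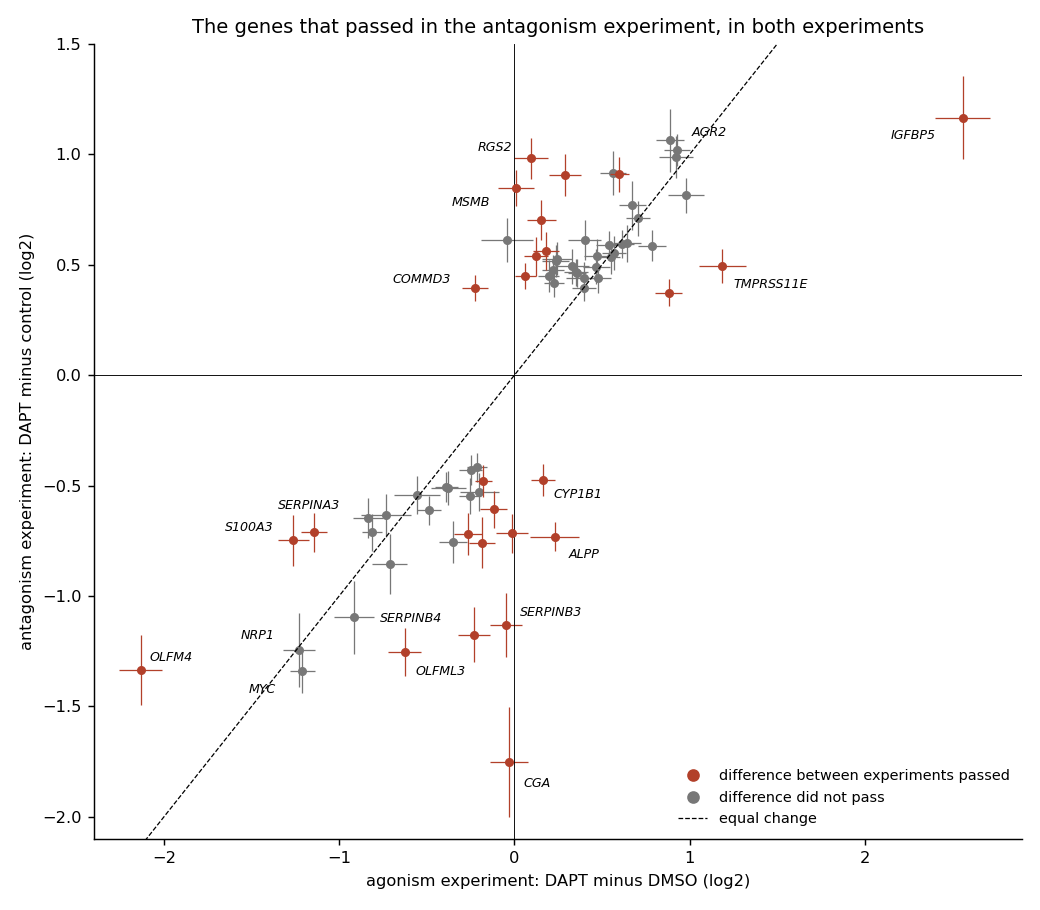
Change with DAPT in the antagonism experiment (vertical axis, DAPT minus control, log2) against that in the agonism experiment (horizontal axis, DAPT minus DMSO, log2) for the 70 genes that passed in the antagonism experiment, with SE bars. Red points are the 26 genes whose difference between the experiments passed, and the dashed line marks equal change. MYC and AGR2 lie near the line, while CGA, MSMB and RGS2 lie near 0 on the horizontal axis.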

How the data were processed

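RNA of MDA-MB-468 cells was hybridised to 26 arrays, per the labels, and 1 array was 1 sample. The authors deposited 1 value per probe set and array as a linear intensity from 7.12 to 32597, and the submitters' processing notes name RMA and R 2.10 without roles. If RMA was applied across arrays, a change common to most transcripts would be reduced, and no detection calls are given. Here the deposited intensities were converted to log2. Of 54675 probe sets, 41097 carried 1 gene symbol, 1801 several and 11777 none, and for each of the 19775 genes the brightest probe set with 1 symbol, by its mean over the 26 arrays, was kept. Symbols are those of the platform annotation, and 41043 probe sets matched RefSeq by gene ID.

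The 3 DAPT, 3 control and 2 anti-N3.A4 arrays were fitted with 1 mean per group in limma 3.58.1 (R 4.3.3), with 5 residual degrees of freedom and a prior of 4.10, and p-values were adjusted by the Benjamini-Hochberg method over all genes. An adjusted p below 0.05 counted as passing. The agonism experiment was fitted to its 18 arrays, and the difference between the DAPT effects to all 26. The fit of the DAPT comparison was tested on simulated data. Named genes were the 15 largest rises and falls that passed, all members of 6 Notch and MYC lists, and the passing members, or else the 3 of smallest p, of the other lists, and genes are also named where the rises and falls are grouped by function. Genes and lists were chosen with earlier results of these data known, so none of them is independent evidence. The number of arrays limits the precision, and detection limits are unknown. Alternatives covered the arrays left out, array scaling, the variance prior, the level filter and the choice of probe set.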

Additional observations from a re-analysis of the deposited data

Results flagged for a closer look

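The genes below are those among the 70 that passed in the antagonism experiment, or among the 8 largest differences in either direction over all genes, whose DAPT effect differed between the antagonism and the agonism experiment in a limma test of the difference itself (adjusted p between 4.6e-05 and 0.0411). Each value is the log2 change in the antagonism experiment minus that in the agonism experiment, and the experiments differ in density, antibody and schedule, which cannot be told apart. Of the 38 genes, 22 no longer passed with only the compared groups in the fit and 15 with at least 1 of the 12 arrays left out, and 15 passed in all of these fits. These 15 were PIP, SCGB2A2, LRRC31, MMP7, DEFB1, CGA, SERPINB3, SERPINB4, ALPP, RGS2, CYP1B1, PKIB, STEAP2, COMMD3 and MSMB. Where a gene lay near the bottom of the scale in 1 experiment, its change there may be compressed, and the difference is then not shown to be one in the effect of DAPT.

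Some secretory genes rose with DAPT in the agonism experiment and did not pass in the antagonism experiment. The mammaglobin gene SCGB2A2 changed by 0.08 in the antagonism and by 1.95 in the agonism experiment, a difference of −1.87. On the antagonism arrays SCGB2A2 lay between 4.80 and 5.01, at the 2.4th percentile of level, near the bottom of the scale. PIP, the prolactin-induced protein, changed by 0.24 and 1.60, a difference of −1.36. The differences of LRRC31 and PKIB, of the same pattern, were −1.57 and −1.02, and both averaged below the lower quartile of 6.49 on the antagonism arrays, at the 10.9th and 11.2nd percentile, as CASP4LP did at the 9.3rd. MMP7, the epithelial matrix protease matrilysin, changed by −0.19 in the antagonism and −1.08 in the agonism experiment, a difference of 0.896. The epithelial defensin gene DEFB1 changed by 0.01 and −1.07, a difference of 1.08. BBOX1, the last enzyme of carnitine synthesis, differed by 0.873, RUSC1-AS1 by 1.05, CASP4LP by 1.05 and MIRLET7D by 0.923, and none of these passed in the antagonism experiment either. STEAP2, a metalloreductase, changed by 0.77 in the antagonism experiment without passing (adjusted p = 0.0555) and differed by 0.911. On the agonism arrays STEAP2 lay between 4.56 and 5.17, near the bottom of the scale. TNC, the matrix protein tenascin C, changed by −0.97 in the antagonism experiment without passing, and differed by −1.15. Without control array 2 the TNC change was −1.31 (limma adjusted p = 0.00663). On the agonism arrays TNC lay between 6.17 and 6.57, below the array medians.

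Among genes that fell in the antagonism experiment, the differences were −1.72 for CGA, −1.08 for SERPINB3, −0.946 for SERPINB4, −0.961 for ALPP, −0.705 for SLC7A5, −0.637 for CYP1B1, −0.627 for OLFML3, −0.572 for MIS18A, −0.489 for ID1, −0.456 for EPHB6 and −0.302 for TRIB2, so the fall was the larger one in the antagonism experiment. OLFM4, S100A3 and SERPINA3 fell more in the agonism experiment, with differences of 0.801, 0.514 and 0.434. Among genes that rose, the differences were 0.885 for RGS2, 0.838 for MSMB, 0.620 for CRISP3, 0.619 for COMMD3, 0.549 for SOSTDC1, 0.417 for H2AC6, 0.385 for CLDN10, 0.383 for NAT1 and 0.312 for CYP4Z1. IGFBP5, TMPRSS11E and ST6GAL1 rose more in the agonism experiment, with differences of −1.39, −0.695 and −0.507. Of these genes COMMD3 was called in opposite directions, at 0.39 in the antagonism and −0.22 in the agonism experiment.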

How the results depend on the processing

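Against 70 genes that passed, 18 did with only the 6 compared arrays in the fit, 109 with arrays centred on their medians, 192 with repeated quantile normalization, 313 with an intensity trend in the prior, 270 among genes above the median level, 41 without probe sets marked _x or _s, and 25 of the probe sets when each was tested alone. With single arrays left out the count lay between 11 and 1198, the highest being without control array 2, and with control array 1 as the only control, an alternative chosen after the data were seen, it was 28. A robust prior gave 68 and the mean of a gene's probe sets 88. Of the 70 genes, 17 were shared with the fit of 6 arrays, 69 with each rescaling, 70 with the trend and between 11 and 70 with single arrays left out. None of the 70 changed direction in any of these fits that tested it.

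Of the agonism comparison's 4089 genes, 2532 passed with only its compared arrays and between 2585 (without DMSO array 1) and 4975 with single arrays left out. Its split was 2446 higher and 1643 lower, or 1867 and 2209 after median centring. The difference between experiments passed for 1211 genes, 72 with only the compared groups, 1853 with the trend, 2012 above the median level, 514 without marked probe sets, and between 326 (without DMSO array 3 of the agonism experiment) and 2828 (without control array 2) with single arrays left out. Its split was 564 higher and 647 lower, or 908 and 389 after median centring.

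Genes that did not pass and lay near 0 changed sign under some alternatives. With single arrays left out, the ranges were APH1A −0.068 to 0.085, CIRSR −0.090 to 0.091, DLK2 −0.087 to 0.048, DLL3 −0.26 to 0.068, DLL4 −0.036 to 0.11, DTX1 −0.15 to 0.051, EP300 −0.12 to 0.072, HES5 −0.13 to 0.013 and HEY2 −0.14 to 0.024. They were ID2 −0.016 to 0.087, KDM5A −0.11 to 0.23, MAML3 −0.10 to 0.40, MGA −0.34 to 0.0060, MLXIP −0.18 to 0.020, MNT −0.14 to 0.0030, MXI1 −0.050 to 0.11, MYCL −0.037 to 0.029 and MYCN −0.32 to 0.24 in a further group. The remaining ones were NOTCH2 −0.029 to 0.19, NOTCH4 −0.15 to 0.12, POGLUT1 −0.22 to 0.11, PSEN2 −0.00036 to 0.23, PSENEN −0.087 to 0.12, RFNG −0.017 to 0.13 and SNW1 −0.075 to 0.029. The mean of a gene's probe sets gave 0.094 for CDH2, 0.029 for DLK1, 0.044 for DLL3, −0.0097 for GATA3, −0.040 for HEYL, −0.0033 for KDM5A, −0.018 for MAML3, 0.100 for MFNG, 0.048 for MGA, 0.0094 for MLXIP, 0.14 for MNT, 0.056 for MYCL, −0.027 for NOTCH2 and 0.086 for NOTCH4. Without marked probe sets the values were 0.56 for CDH2, 0.15 for DLK1, −0.15 for GATA3, 0.049 for HEY1, 0.074 for MAX, 0.097 for MFNG, 0.17 for MGA and −0.10 for MLX. Control array 1 alone gave −0.040 for APH1A, −0.030 for APH1B, 0.18 for CIRSR, −0.061 for DLL4, 0.031 for MNT, −0.23 for MYCN, 0.022 for NOTCH4 and 0.038 for SNW1. Median centring gave 0.011 for CIRSR, 0.0072 for DLK2 and 0.0081 for EP300, and quantile normalization 0.018 for CIRSR, 0.0023 for DLK2, 0.0017 for EP300 and 0.0033 for POGLUT1. The cause was not tested for any of these shifts.

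Estimation of array weights did not converge and gave no usable value. No paired analysis was possible because the labels give no replicate numbers. The number of arrays limits the precision, no detection calls are given, and genes near the bottom of the scale have compressed changes.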

Other observations

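Histone genes were looked at after 4 of them had been seen among the genes that passed. The set holds the 46 measured genes of the H1, H2AC, H2BC, H3C and H4C name series, and histone genes with other names were left out. Of the 46, these 4 passed and all were higher with DAPT, where 0.202% of all genes were. As the set was formed because these 4 had passed, its share of calls is no evidence about histone genes. H2BC5 changed by 0.71, H2AC6 by 0.54, H2BC12 by 0.46 and H2BC12L by 0.44 on the log2 scale. Of the 22 H2AC and H2BC genes in the set, 19 lay above 0 with a median of 0.10. Of the 24 H1, H3 and H4 genes in the set none passed in limma, 6 had an unadjusted p under 0.05, 17 lay below 0 and the median was −0.09. Histone genes of one kind are often near copies of each other, so their probe sets may share transcripts.

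Feedback regulators of MAP kinase signalling lay on both sides of 0. Of 14 measured, 0 passed in limma and 8 had an unadjusted p under 0.05, where 2572 of 19775 genes did. Without control array 2, 2 were called higher and 5 lower, where 2.94% and 3.12% of all genes were. The phosphatase genes DUSP6 and DUSP4 gave 0.61 and 0.36 (adjusted p = 0.147 and 0.102), while PHLDA1 and IER3 gave −0.28 and −0.31. In the agonism experiment DUSP6 changed by 1.06 (limma adjusted p = 1.02e-07) and DUSP4 by 0.70.

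Of 15 genes of cholesterol and fatty acid synthesis 0 passed and 8 had an unadjusted p under 0.05, with ELOVL6, a fatty-acid elongase, at −0.52 and FDPS, which makes farnesyl diphosphate, at 0.27. Over all genes 2572 of 19775 had such a p. Of 20 genes of ATF4 and the unfolded protein response 0 passed and 7 had an unadjusted p under 0.05, with the serine synthesis gene PSAT1 at −0.31 and the chaperone gene DNAJB9 at 0.36. Of 20 interferon-stimulated genes 0 passed and 1 had an unadjusted p under 0.05, with changes between −0.19 and 0.20. Of 11 genes of NF-kB and its inhibitors 0 passed and 2 had an unadjusted p under 0.05, with NFKBIZ, an inducible nuclear cofactor, at 0.47 (limma adjusted p = 0.0858, and 0.0308 without control array 2). Without that array ELOVL6 and PSAT1 were called lower and DNAJB9 higher.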
